A study of Homo sapiens with 4 samples.

Results

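Integrins are the receptors through which cells grip the extracellular matrix. Each is a pair of an alpha and a beta subunit, and the pair sets which ligand is bound: ITGB1 joins many alpha subunits, ITGB4 joins ITGA6 alone to hold cells on laminin at hemidesmosomes, and ITGAV joins ITGB3, ITGB5 or ITGB8 to bind vitronectin or latent TGF-beta. In prostate epithelium the laminin receptors ITGA3 and ITGA6 with ITGB1 or ITGB4 anchor basal cells to the basement membrane. Expression of 10 integrin subunits, 5 alpha (ITGA2, ITGA3, ITGA5, ITGA6 and ITGAV) and 5 beta (ITGB1, ITGB3, ITGB4, ITGB5 and ITGB8), was read on arrays of 2 human prostate cancer cell lines. The genes were taken by name, with every array probe that carries 1 of these names, which gave 11 of 34127 probes and 29 of 43118 gene spots, for 10 of 27274 gene names.

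LNCaP is a prostate cancer line whose growth responds to androgen, and PC3 is one that grows without it. Both lines were kept in RPMI with serum, and each gave a control array, for which the labels name no vehicle, and an array of cells that had spent 24 h with atorvastatin (ATO) at 10 µM. The 4 groups, control and ATO in LNCaP and in PC3, thus held 1 array each. ATO is a statin, an inhibitor of the enzyme that makes mevalonate, the precursor of cholesterol and of the lipid anchors of many membrane proteins. With 1 array per group the differences below have no replicate check and no p-value is given inside a line. The 4 arrays shared a slide, each at its own position, so position and group cannot be told apart. Between 48.5% and 52.9% of gene spots were well above background, the scanner software's call that a spot is clearly brighter than the blank surface. Where a spot was not, the software could put a surrogate in place of its value. CD44, a marker of PC3, read 6.81 and 12.3 units in LNCaP and 7404 and 6414 units in PC3.

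Of the 11 probes, 9 were spotted once and those of ITGAV and ITGB1 10 times. None of the 29 spots carried an outlier call on any array (0), and 0 gene spots were saturated. ITGA6 was the only subunit with more than 1 probe. The probes lie on the hg18 build, for example at chr17:71265419-71265478 for ITGB4, chr17:45522364-45522423 for ITGA3 and chr7:20421662-20421721 for ITGB8, and exons of that build were not looked up. The probes of ITGB1 and ITGB5 are shown because they lie within coding sequence, so that what was hybridised can be read. Each reads through from its first base with no stop codon. The ITGB1 probe (chr10:33240513-33240572, minus strand) comes from the cysteine-rich repeats of the beta stalk, and capitals mark its 4 cysteine codons out of 20. The ITGB5 probe (chr3:125965181-125965240, minus strand) comes from the cytoplasmic tail, the part of a beta subunit that talin binds, and has 0 cysteine codons.
ITGB1: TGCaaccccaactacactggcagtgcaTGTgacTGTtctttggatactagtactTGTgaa
ITGB5: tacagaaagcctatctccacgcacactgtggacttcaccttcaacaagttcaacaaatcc

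The first question was which subunits each line expressed. Of the 10 subunits, 8 were well above background on both PC3 arrays, against 6 on the LNCaP control and 5 on the LNCaP ATO array. ITGA2, the alpha subunit of a collagen receptor, was not well above background on any array. It read 7.15 and 13.6 units in LNCaP (control and ATO) and 14.1 and 14.2 units in PC3. ITGB3, the beta subunit of the platelet and osteoclast receptors, was not well above background either, at 11.7 to 15.6 units. No ratio was computed for these genes. Levels in the plot of the 4 arrays are log2 values relative to the 75th percentile of each array, and the ratios below are differences of these values.

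**Figure D1:**
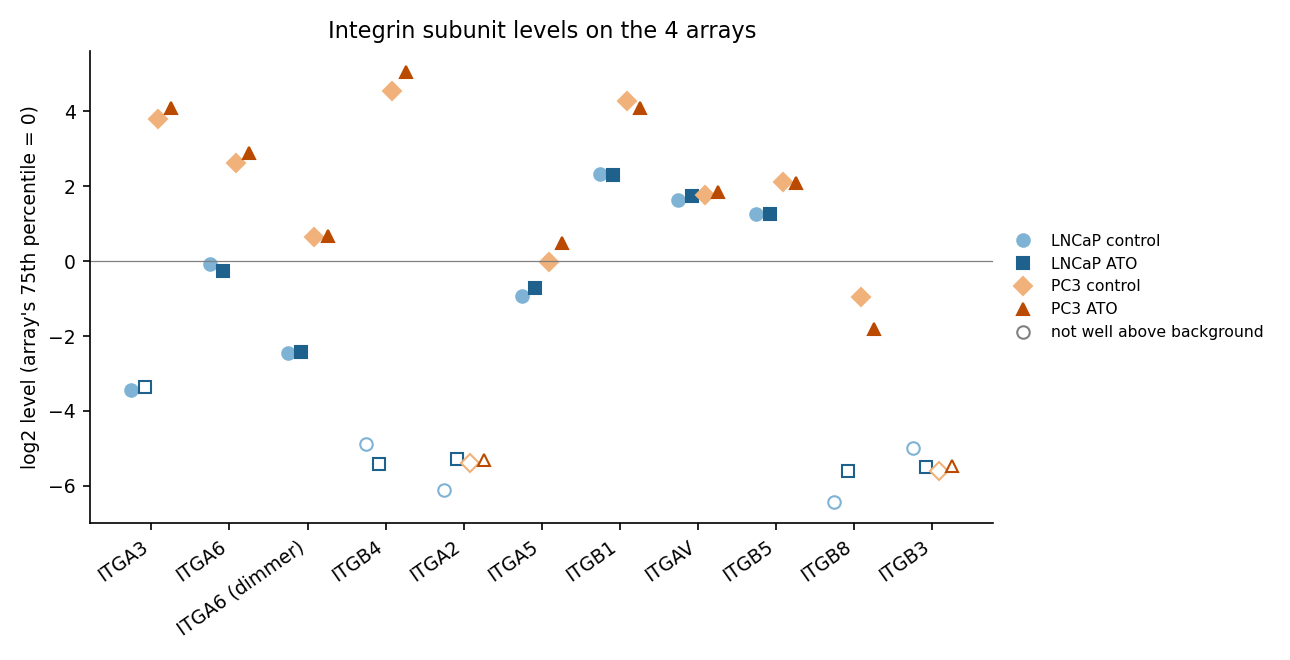
Levels of the integrin subunits on each array, as the log2 of the processed intensity relative to the array's 75th percentile (y axis); each marker is 1 array, open where the probe was not well above background, and both ITGA6 probes are shown. Levels of different genes come from different probes and are not comparable. In ITGA3, ITGA6, ITGB1 and ITGB4 the PC3 markers stand far above the LNCaP markers, whereas in ITGAV all 4 lie between 1.63 and 1.85.

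ITGB4 and ITGA3, both subunits of laminin receptors, had the largest differences between the lines among the 10. ITGB4 read 16.8 and 12.4 units in LNCaP (control and ATO), neither well above background, and 13552 and 18549 units in PC3. It was at least 415-fold higher in untreated PC3 than in untreated LNCaP, and at least 318-fold higher between the ATO arrays. Such a bound sets the brighter value against the dim one. Where the dim value lay under the lowest level that counts as well above background on its array, that level was used instead. ITGA3, which joins ITGB1 to bind laminins, read 45.2 units on the control and 51.1 units, not well above background, on the ATO array of LNCaP, and 8062 and 9533 units in PC3. Its log2 ratio of untreated PC3 to LNCaP was 7.22 ± 0.27 (scanner error estimate of a single spot on each array), a 149-fold difference. PC3 was at least 164-fold higher after ATO. With another background correction (normexp) the untreated log2 ratio of ITGA3 fell to 5.86. The untreated bound of ITGB4, 8.70 on the log2 scale, fell to 6.62 with it.

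ITGA6 joins ITGB4 or ITGB1. Its brighter probe (chr2:173078802-173078861) read 466 and 444 units in LNCaP control and ATO against 3575 and 4137 units in PC3 control and ATO. The log2 ratio of PC3 to LNCaP was 2.68 ± 0.21 (scanner error) untreated and 3.13 ± 0.21 after ATO. The dimmer probe (chr2:173077449-173077508) read 90.2 and 97.8 units in LNCaP and 913 and 898 units in PC3. It gave 3.08 ± 0.23 and 3.11 ± 0.27, so that both probes placed PC3 higher, by 6.42-fold and 8.47-fold in untreated cells.

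ITGB1, the shared beta subunit of most matrix receptors, was measured by 10 spots. It read 2473 ± 114 and 2590 ± 133 units (SD, n = 10 spots) in LNCaP (control and ATO) and 11392 ± 487 and 9619 ± 432 units in PC3. The spots of the PC3 arrays did not overlap with those of the LNCaP arrays, and PC3 was 3.86-fold higher untreated and 3.49-fold higher after ATO. These SDs are between copies of a spot on 1 array and hold no biological spread. ITGA5, which joins ITGB1 as the classical fibronectin receptor, read 258 and 321 units in LNCaP and 581 and 793 units in PC3. Its log2 ratio of PC3 to LNCaP was 0.91 ± 0.21 (scanner error) untreated and 1.21 ± 0.21 after ATO, so it passed 2-fold only between the ATO arrays.

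**Figure D2:**
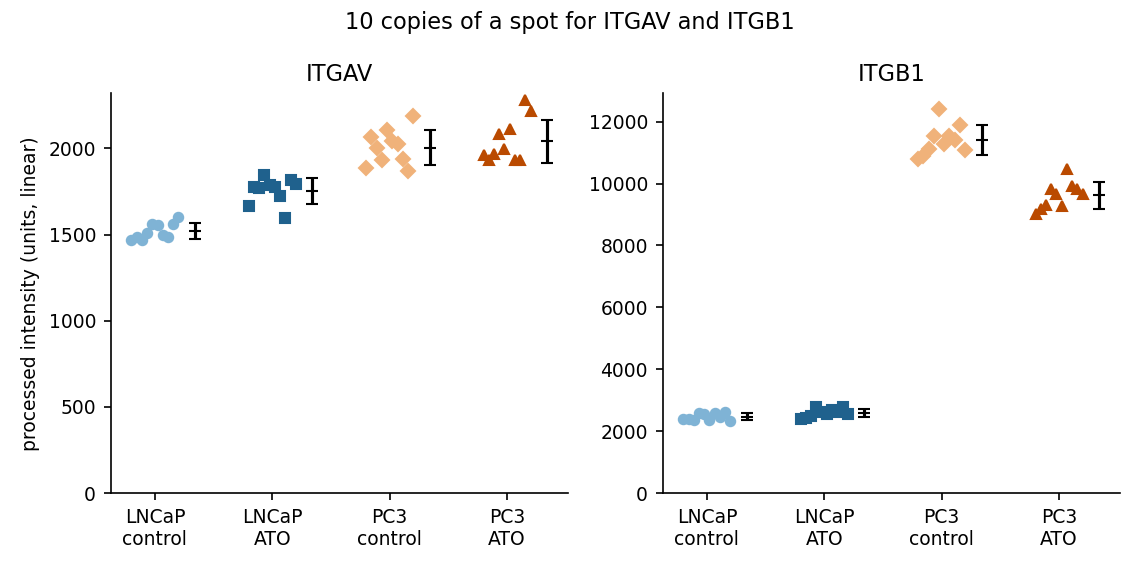
Processed intensity on a linear scale (y axis) of the 10 copies of the ITGAV and ITGB1 spots on each array; points are single spots, and the bars beside them give the mean and SD over the 10 copies. ITGB1 reads 2473 and 2590 units in LNCaP against 11392 and 9619 units in PC3, while ITGAV stays between means of 1520 and 2042 units.

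Among the ITGAV group the lines were closer, with the exception of ITGB8. ITGAV read 1520 ± 45.5 and 1755 ± 74.5 units (SD, n = 10 spots) in LNCaP and 2006 ± 102 and 2042 ± 126 units in PC3. Relative to each array's 75th percentile its ratio of PC3 to LNCaP was 0.14 untreated and 0.13 after ATO on the log2 scale, and the former moved to -0.30 when arrays were scaled to the 50th percentile and to 0.67 with the spike-in probes. ITGB5, which joins ITGAV to bind vitronectin, read 1168 and 1259 units in LNCaP and 2520 and 2392 units in PC3. PC3 was higher by 0.85 ± 0.20 (scanner error) untreated and 0.83 ± 0.20 after ATO on the log2 scale, below 2-fold. ITGB8, which joins ITGAV to bind and activate latent TGF-beta, read 5.73 and 11.0 units on the LNCaP arrays, neither well above background, and 304 and 161 units in PC3 control and ATO. It was at least 9.29-fold higher in untreated PC3 and at least 2.76-fold higher after ATO. With normexp the untreated bound of ITGB8 fell from 3.22 to 2.13 on the log2 scale.

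Differences were counted where a probe was well above background on 1 or both arrays. By this count 5 of the 8 subunits with a value differed at least 2-fold between the untreated lines (ITGA3, ITGA6, ITGB1, ITGB4 and ITGB8), and all 5 were higher in PC3. Over all genes with a value, 39.7% differed at least 2-fold and 20.4% were at least 2-fold higher in PC3. Between the ATO arrays 6 of 8 subunits were at least 2-fold higher in PC3, the same 5 and ITGA5, where 18.0% of all genes were. Between the untreated arrays ITGB4 and ITGB8 had a value only through PC3. Without them 3 of 6 subunits were at least 2-fold higher in untreated PC3, against 13.2% of all genes that both untreated arrays measured. Between the ATO arrays ITGA3, ITGB4 and ITGB8 had a value only through PC3, so they could only count as higher. Of the 5 subunits that both ATO arrays measured, ITGA5, ITGA6 and ITGB1 were at least 2-fold higher in PC3. The share of all genes measured on both ATO arrays is not given. Under spike-in scaling ITGA5 and ITGB5 also passed 2-fold, which gave 7 subunits.

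**Figure D3:**
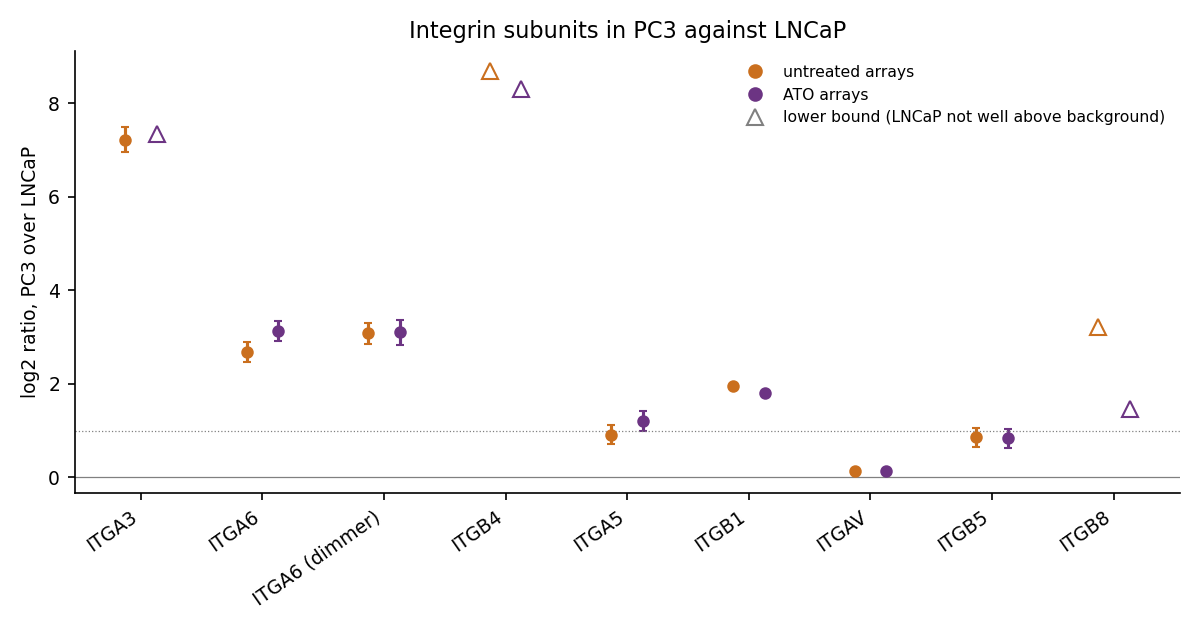
Log2 ratio of PC3 to LNCaP (y axis) for each integrin subunit with a value, between the untreated arrays and between the ATO arrays; bars are the scanner's error estimate, or the standard error over 10 spots for ITGAV and ITGB1, and open triangles are lower bounds. The dotted line marks 2-fold. ITGB4 and ITGA3 lie above 7 and ITGAV lies at 0.14 and 0.13.

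The cell lines were also compared with limma, a moderated linear model fitted to all genes, in which the control and ATO arrays served as the pair of measurements of a line. This compares the lines over both treatments and leaves 1 residual degree of freedom. No group was repeated, so the p-values of this fit do not measure the spread between cultures of a line. Of 13931 genes tested 55.9% passed an adjusted p of 0.05, so a difference between the lines was common. ITGB4 and ITGB8 entered this fit only through PC3, where they are high, so that they had to differ, and they are left out of the count. Of the other 6 subunits 5 passed, each higher in PC3. Among all genes that were, like these, well above background on an array of each line, 49.3% passed and 19.7% passed as higher in PC3. ITGAV did not pass, at 0.13 ± 0.13 on the log2 scale (SE; limma adjusted p = 0.438). The adjusted p by limma was 0.00211 for ITGA3, 0.00443 for ITGA6, 0.00549 for ITGB1, 0.0171 for ITGA5 and 0.0188 for ITGB5. ITGB5 no longer passed with scaling to the 50th percentile, and neither ITGA5 nor ITGB5 passed without the filter on dim genes.

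The next question was whether ATO changed the subunits. In LNCaP 0 of the 6 subunits with a value differed at least 1.5-fold between ATO and control, where 4.77% of all genes did. On the log2 scale ITGA5 was at 0.20 ± 0.21 (scanner error) and ITGB5 at 0.00 ± 0.20. ITGA6 was at -0.18 ± 0.21 by its brighter and 0.01 ± 0.28 by its dimmer probe. All 3 of these genes lay within their scanner error of 0 by each probe. For the genes with 10 spots the error is another measure, the SE over copies of a spot, and cannot be set against the scanner error. By it ITGAV was at 0.10 ± 0.02 (SE, n = 10 spots) and ITGB1 at -0.04 ± 0.03. The mean scanner error of their spots on the LNCaP control array was 152 units at 1520 for ITGAV and 247 units at 2473 for ITGB1. Under spike-in scaling ITGA5 moved to 0.40, beyond its error, ITGAV to 0.29, ITGB5 to 0.19 and ITGB1 to 0.15, a scaling that shifted the median of all genes by 0.20. ITGA3 had only a bound, which allowed no fold. ITGB4 and ITGB8 had no value in this line.

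In PC3 1 of the 8 subunits, ITGB8, differed at least 1.5-fold after ATO, where 18.5% of all genes did and 10.1% were lower. ITGB8 went from 304 units in PC3 control to 161 in PC3 ATO. Its log2 ratio was -0.86 ± 0.23 (scanner error), a 1.82-fold lower level, and lay at the 2.87 percentile of the genes measured on both PC3 arrays. The value ranged from -0.94 to -0.67 over the alternatives tried and did not reach 2-fold in any. It rests on a single spot per array and on 1 probe.

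The other 7 subunits kept within 1.5-fold in PC3. Highest were ITGB4, at 0.51 ± 0.20 (scanner error), and ITGA5, at 0.50 ± 0.21, both near the 90th percentile of measured genes (90.3 and 90.1). They passed 1.5-fold when arrays were scaled to the 50th percentile, at 0.70 each, a scaling that moved the median of all genes by 0.19. The ITGB4 spot on the PC3 ATO array had a local background 2.08 times the median of that array, against 0.96 times on the control array, and the part of this in its ratio was not tested. ITGA3 was at 0.30 ± 0.20. ITGA6 was at 0.27 ± 0.20 by its brighter and 0.03 ± 0.21 by its dimmer probe, so only the brighter probe was above its own error.

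ITGB1 was slightly lower after ATO in PC3. Before scaling, its spots ranged from 10779 to 12403 units in the control and from 9031 to 10477 units in the ATO array. The 75th percentiles of these arrays were 586 and 565 units, and relative to them the ranges of the spots overlapped. The log2 ratio was -0.19 ± 0.03 (SE, n = 10 spots), a 1.14-fold lower level, at the 27.3 percentile of measured genes. It moved to 0.00 with scaling to the 50th percentile. ITGAV was at 0.08 ± 0.04 (SE, n = 10 spots) and ITGB5 at -0.02 ± 0.20, and ITGB5 changed sign with that scaling, to 0.17. The median over the 8 subunits was 0.17 on the log2 scale, against 0 over all genes.

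**Figure D4:**
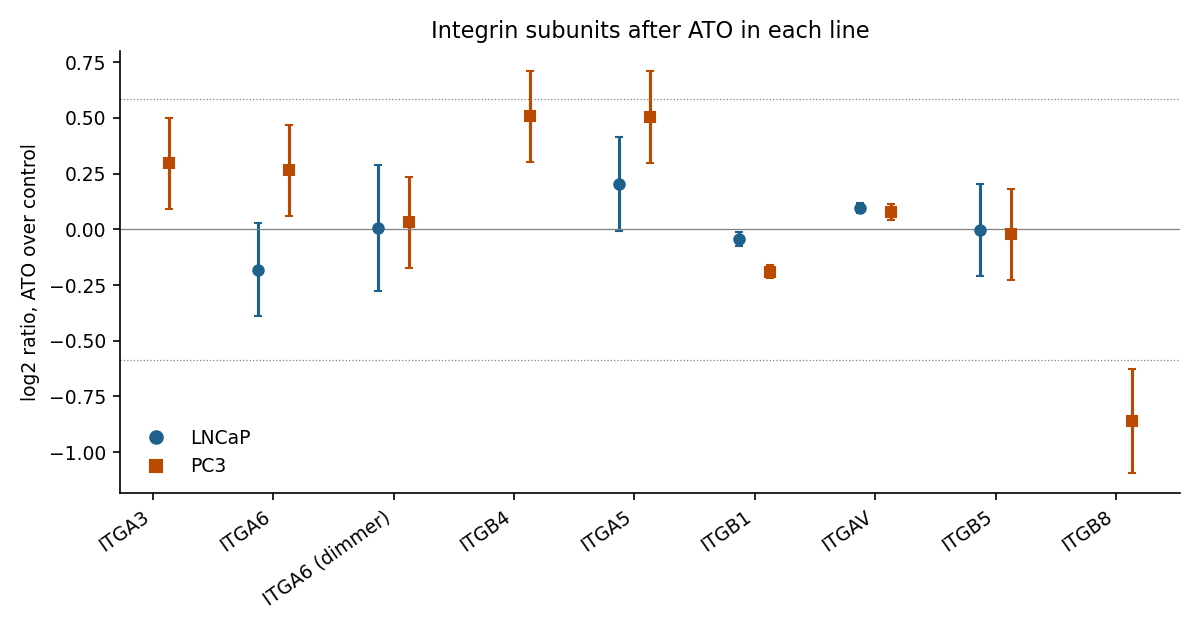
Log2 ratio of ATO to control (y axis) for each integrin subunit measured on both arrays of a line, in LNCaP (circles) and PC3 (squares); bars are the scanner's error estimate, or the standard error over 10 spots for ITGAV and ITGB1, and dotted lines mark 1.5-fold. ITGB8 in PC3, at -0.86, is the 1 point beyond these lines.

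Over both lines limma gave 0 of 13931 genes (0%) an adjusted p below 0.05 for the treatment, with 605 genes below 0.05 unadjusted. None of the 8 subunits tested was among the latter (0), and their adjusted p by limma lay between 0.802 and 0.994. The estimates of ITGB8, -0.02 ± 0.50 (SE), and of ITGB4, -0.02 ± 0.33, are averages with LNCaP values that were not well above background, 5.73 and 11.0 units for ITGB8 and 16.8 and 12.4 units for ITGB4. The estimate nearest to passing was ITGA5, at 0.35 ± 0.16 (SE) on the log2 scale with an unadjusted p of 0.107 by limma. Whether the response differed between the lines could not be tested with 1 array per group.

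For ITGB8, the subunit with the largest measured PC3 difference after ATO, the genes of most similar pattern were looked up by the Euclidean distance of their 4 centred log2 levels, among 11016 genes well above background on all 4 arrays. Since ITGB8 itself was near background in LNCaP, the match rests in part on values that are not measured levels. The nearest were PROCR (distance 0.55), the endothelial protein C receptor, INHBB (0.62), a subunit of activin B and inhibin B, and NCRNA00152 (0.64), a non-coding RNA. In PC3 the log2 ratio after ATO was -0.24 for PROCR, -1.28 for INHBB and -0.87 for NCRNA00152. In untreated cells they were 32.6-fold, 51.4-fold and 25.9-fold higher in PC3 than in LNCaP.

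Genes that work with these subunits were described from 5 lists, which share some members. Over all genes with a value in PC3, 1158 were higher and 1399 lower at 1.5-fold after ATO, with a median log2 ratio of 0. Of the 17 other integrin names of the array 3 had a value in LNCaP and 9 in PC3. After ATO 0 of the 3 passed 1.5-fold in LNCaP, while in PC3 2 were higher and 1 lower, with a median of 0.12. ITGB7, a leukocyte beta subunit, had the highest PC3 ratio (0.93, from 175 to 321 units). The other higher gene was ITGB6, an epithelial partner of ITGAV, at 0.61 (from 78.3 to 115 units), named after its value was seen. ITGA4 was at least 4.48-fold lower after ATO, from 250 units to 19.3 units, not well above background. Its spot had a bright local background on at least 1 PC3 array, and its 2 further probes were not well above background on either PC3 array.

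Of 26 matrix ligands 19 had a value in PC3, where 1 was higher and 3 lower at 1.5-fold, with a median of 0.00. THBS1, thrombospondin 1, was lowest at -1.21 (from 21802 to 9063 units), and its second probe gave -0.84. The others were COL4A2 (-0.96) and COL4A1 (-0.72), basement membrane collagen chains, named after their values were seen. LAMB2, a laminin beta chain, was the 1 higher gene at 0.75, and its second probe gave 0.47. In LNCaP 11 ligands had a value and 0 passed 1.5-fold. FN1, the gene of fibronectin and so of the ligand of ITGA5 with ITGB1, was not well above background on any array, at 7.65 to 15.1 units.

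Talin, kindlins and the adaptors and kinases of focal adhesions link the beta tail to actin. Of 30 such genes 28 had a value in PC3, 3 higher and 1 lower at 1.5-fold, with a median of 0.13. LIMS1, the PINCH adaptor, was highest at 1.11 (from 139 to 290 units) and PARVA, alpha-parvin, lowest at -0.73 (from 1027 to 595 units). Also higher, and named after their values were seen, were ZYX, zyxin (0.71), and FERMT1, kindlin-1 (0.62). LIMS1 and PARVA both bind ILK, the integrin-linked kinase. LIMS1, PARVA and ZYX had a bright local background, over 1.5 times the array's median, on a PC3 array. In LNCaP 1 of 24 passed, TNS4, a tensin, which was at least 2.73-fold higher after ATO, again with a bright local background. TNS4 went from 34.6 units, not well above background, to 102 units.

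Of 13 inhibitors and membrane partners 12 had a value in PC3, 0 higher and 2 lower at 1.5-fold, with a median of 0.16. CAV1, the caveolin that associates with integrins at the membrane, was lowest at -1.25, from 12387 to 5019 units, and its second probe gave -0.78. DOK1, which competes with talin for the beta tail, was at -0.60 and was named after its value was seen. In LNCaP 0 of 11 passed. Of the hemidesmosome partners of ITGB4, 0 of 4 passed 1.5-fold in LNCaP and 0 of 6 in PC3. By limma 0 genes of these lists passed for the treatment. Of the 70 genes of the lists tested, 6 had an unadjusted p below 0.05, where 4.34% of all genes did. Among these 6, COL4A1, ITGA1, ITGB6 and LTBP1 were not well above background on either LNCaP array. Their estimates thus rest in part on values that are not measured levels. The others were ITGB7 and LAMA3.

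**Figure D5:**
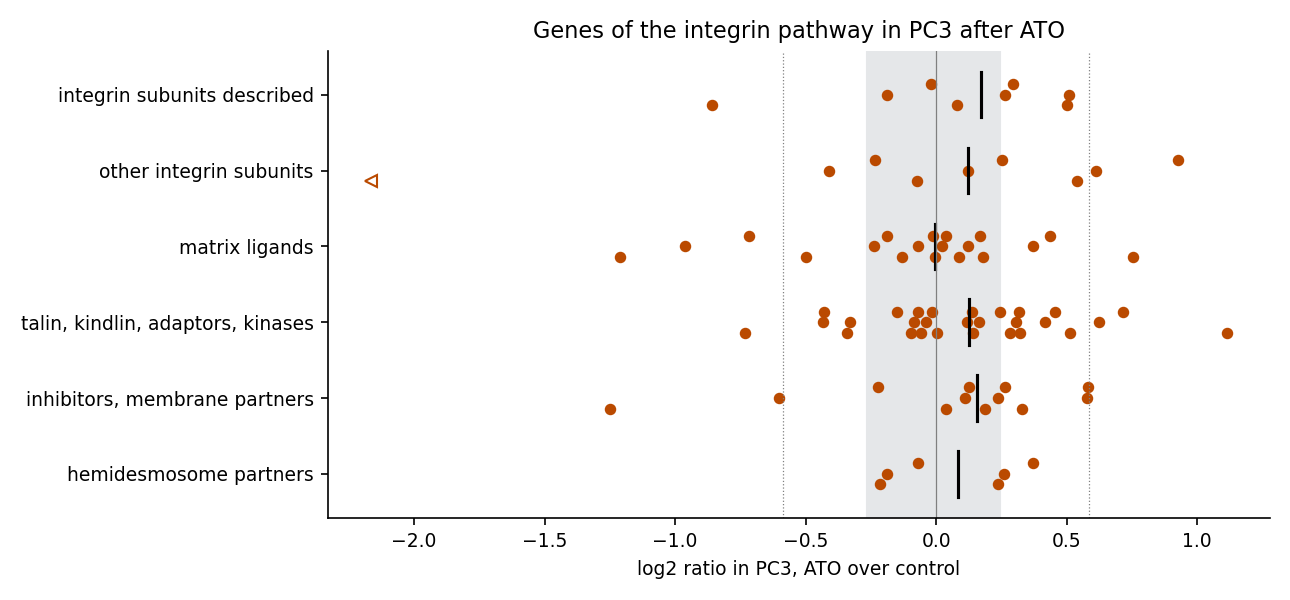
Log2 ratio of ATO to control in PC3 (x axis) for the integrin subunits and the genes of 5 pathway lists; each circle is a gene by its brightest probe, the open triangle a bound, and the black bar the median. The grey band spans the quartiles of all genes (-0.26 and 0.25), dotted lines mark 1.5-fold, and the 6 medians, from 0.00 to 0.17, lie inside the band.

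The partners of ITGB4 in hemidesmosomes were also compared between the lines. Of 6 tested by limma, 4 were well above background on an array of each line. All 4 (CD151, DST, LAMA3 and PLEC1) were higher in PC3, beside the 19.7% of all such genes. COL17A1, also on the list, was not well above background on any array, at 8.37 to 59.2 units, and was not tested. DST also had a dimmer probe that was not well above background on any array, at 5.84 to 11.6 units. LAMA3, a chain of a laminin that ITGA6 with ITGB4 binds, was 9.65-fold higher in untreated PC3 by its brighter and 1.38-fold by its dimmer probe. LAMB3, another chain, was well above background in PC3 alone and at least 410-fold higher (5.56 units in LNCaP, 13409 in PC3). PLEC1, plectin, which ties ITGB4 to keratin filaments, was 9.30-fold higher. These genes were named after their values were seen. Counted in the same way, 7 of 10 ligands passed by limma as higher in PC3 and 1 as lower. The counts were 13 and 3 of 24 for focal adhesion genes, 2 and 1 of 3 for other subunits, and 5 and 0 of 11 for inhibitors and partners.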

How the data were processed

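Groups and doses came from the labels. The authors obtained each spot intensity with Agilent Feature Extraction 9.5.3.1, which, per the file headers, subtracted a spatially fitted background, removed a multiplicative trend and used surrogates for spots not above background. The 4 arrays were 1-colour. A table the authors deposited gives each probe as a ratio to its array's 75th percentile, never under 0.03, and served as an alternative. Yes or no calls for bright, saturated and outlier spots were deposited too.

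Outlier spots were left out and log2 intensities were averaged over the spots of a probe, less the array's 75th percentile. A probe was well above background where over 50% of its spots were. A gene was its brightest probe. Ratios of a probe dim on 1 array are bounds. Local background was called bright above 1.5 times the array's median. limma 3.58.1 (R 4.3.3) fitted treatment and cell line together to genes well above background on at least 2 arrays, two-sided, with Benjamini-Hochberg adjustment, and was tested on simulated data. The number of arrays limits the precision. All 10 subunits, 5 lists and thresholds were chosen with earlier results of these data known. Named in each list were the highest and lowest PC3 ratio past 1.5-fold, and LNCaP genes past it where 5 or fewer. The alternatives were 5 other scalings or sources, 3 filters, 2 choices of probe, other thresholds and, for limma, an intensity trend in the prior. The limma counts between lines over genes measured in each line were added after seeing the data. Some results are not reported here.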

Additional observations from a re-analysis of the deposited data

How the results depend on the processing

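In LNCaP the count of subunits past 1.5-fold after ATO was 0 in the main analysis and under each alternative but 1: with no filter on dim probes it was 2 (ITGA2 and ITGB8, both below background there). In PC3 the count of 1 became 3 with the 50th percentile, 2 with normexp, 0 with a 2-fold threshold and 3 with a 1.3-fold threshold, the last chosen after seeing the data; ITGB8 was among those counted under all but the 2-fold threshold. Between the untreated lines the count of 5 became 3 when only probes well above background on both arrays were used. ITGB4 and ITGB8 then had no value. The count became 7 with the spike-in probes and 4 with a 4-fold threshold, which ITGB1 did not pass. No called subunit changed sign. By limma the count for the treatment stayed at 0, and that for the cell line, with ITGB4 and ITGB8 included, was 7 and lay between 5 and 7. The 50th percentile shifted the median of all genes by 0.19 in PC3 after ATO and by -0.44 between the untreated lines, and spike-in scaling by 0.20 in LNCaP after ATO and by 0.52 between the untreated lines. The share of all calls that were higher was 45.3% in PC3 after ATO, against 70.6% with the 50th percentile and 33.2% with the spike-in probes. It was 57.0% in LNCaP, against 80.3% with the spike-in probes and 45.6% with normexp, and 51.4% between the untreated lines, against 31.8% with the 50th percentile and 75.5% with the spike-in probes. The limma fit pairs ATO with control by cell line and gives their average difference over both lines, with no test inside a line. The replicate number is the same for all 4 arrays, so it adds no further block to that fit.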
